A study of Mus musculus with 12 samples.

Results

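Thyroid RNA was compared between affected mice on the B6NTac background and unaffected mice for the 9 genes that encode stress-responsive basic leucine zipper (bZIP) transcription factors, *Atf3*, *Atf4*, *Atf5*, *Ddit3*, *Cebpa*, *Cebpb*, *Cebpg*, *Creb3l1* and *Creb3l2*. They are 9 of 55536 genes in the deposited tables and were taken by gene symbol. The set was drawn up with the difference between affected and unaffected mice already known, so all differences in level between these groups are given as a description. The symbol *Ddit3* also stands on another row, which was at 0 in all 12 mice and was not used. Each library came from the thyroid of 1 mouse. The 5 affected mice (replicates 1, 3, 4, 5 and 6) had thyroid dysplasia, which the study traced to a LINE-1 element in intron 25 of *Tg*, the thyroglobulin gene. Of the 7 unaffected mice, 6 were wild type animals of the B6NCrl strain (replicates 21 to 26) and 1 was a knockout animal from the B6NTac source (replicate 14). Which alleles each sequenced mouse carried, the gene knocked out in replicate 14, and the sex and age of the mice are not given in the sources used here. Nearly all control mice were therefore of another substrain, and effects of substrain and of dysplasia cannot be told apart.

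Proteins of the bZIP class bind DNA as dimers through a basic region followed by a leucine zipper. When the endoplasmic reticulum (ER) is overloaded with unfolded protein, the kinase PERK phosphorylates the translation factor eIF2 alpha, which slows protein synthesis in general but favours translation of ATF4. ATF4 acts on genes of amino acid supply and on further bZIP genes, among them *Ddit3* (encoding CHOP), *Atf3* and *Atf5*, and C/EBP gamma is one of its partners. C/EBP alpha and C/EBP beta are better known from fat cell differentiation, liver and inflammation, whereas CREB3L1 and CREB3L2 are ER membrane proteins that are cut in the Golgi and act on genes of secretory transport. Thyroid follicular cells secrete very large amounts of thyroglobulin through the ER.

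Promoter sequences are shown first because bZIP factors are known to act on promoters of other bZIP genes. RefSeq promoters (GRCm38.p6, 250 bases before to 50 bases after the start) were found for 8 of the 9 genes, in 9 entries, and *Creb3l1* was not matched. They were searched on both strands for the C/EBP-ATF composite element TGATGNAA, the core of the cyclic AMP response element TGACGT and the C/EBP element TTGCNNAA. The ER stress response element was searched as CCAAT, 9 bases of any kind and CCACG. Only exact matches were counted. The composite element was present in 3.97% of all 32851 promoter entries, the cyclic AMP response element core in 7.51%, the C/EBP element in 10.8% and the ER stress response element in 0.119%. Only *Atf3* and *Creb3l2* held a match to any of them. The *Atf3* promoter (chr1:191183284-191183583, minus strand) held the composite element at position -110 from the start and the cyclic AMP response element core at position -8, both on the strand opposite to the gene. The *Creb3l2* promoter (chr6:37442099-37442398, minus strand) held the core at position -196. That of *Ddit3* (chr10:127290543-127290842, plus strand) is shown beside them as one without an exact match. On the strand opposite to the gene it holds CCAAT, 9 bases and GCACG, where the searched ER stress response element ends in CCACG. Capitals mark the matched letters.
Atf3: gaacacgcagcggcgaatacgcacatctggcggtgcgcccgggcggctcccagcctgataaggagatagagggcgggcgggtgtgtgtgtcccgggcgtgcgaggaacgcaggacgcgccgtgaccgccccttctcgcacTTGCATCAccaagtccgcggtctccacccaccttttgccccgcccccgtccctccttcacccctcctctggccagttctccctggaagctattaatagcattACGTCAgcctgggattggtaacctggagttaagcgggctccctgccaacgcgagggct
Creb3l2: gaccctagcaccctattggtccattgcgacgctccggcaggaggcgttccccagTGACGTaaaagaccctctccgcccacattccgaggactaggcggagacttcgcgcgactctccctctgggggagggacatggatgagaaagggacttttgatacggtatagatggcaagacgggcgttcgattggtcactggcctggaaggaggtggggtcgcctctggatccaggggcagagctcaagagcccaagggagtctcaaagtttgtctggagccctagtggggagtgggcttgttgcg
Ddit3: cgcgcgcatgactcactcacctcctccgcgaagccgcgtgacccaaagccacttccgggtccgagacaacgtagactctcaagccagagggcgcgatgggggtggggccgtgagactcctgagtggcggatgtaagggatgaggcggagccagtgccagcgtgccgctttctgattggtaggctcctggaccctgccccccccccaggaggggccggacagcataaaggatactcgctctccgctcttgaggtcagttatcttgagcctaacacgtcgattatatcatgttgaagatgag
The absence of a match says only that these letters are not in this window.

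The composite element was also looked for in known targets of ATF4 and CHOP. Of their 26 promoter entries (21 of 26 genes matched), 7 held it, which is 26.9%. Windows of 30 bases are shown for *Asns* (chr6:7693214-7693243) and *Trib3* (chr2:152344028-152344057), whose RNA was higher in affected mice, and for *Chac1* (chr2:119351038-119351067) and *Vldlr* (chr19:27216809-27216838), whose difference did not pass the test. They are read on the strand of the match, with the element in capitals.
Atf3: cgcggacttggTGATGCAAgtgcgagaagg
Asns: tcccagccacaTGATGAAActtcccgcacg
Trib3: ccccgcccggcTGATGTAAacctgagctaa
Chac1: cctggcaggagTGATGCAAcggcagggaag
Vldlr: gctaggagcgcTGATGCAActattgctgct
*Asns* had a log2 fold change of 1.74 and *Trib3* of 2.57, against 1.27 for *Chac1* and -0.06 for *Vldlr* (adjusted p = 0.311 and 0.949, edgeR's quasi-likelihood test). The same element thus stood in promoters of genes that differed between the groups and of genes for which no difference was called.

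The libraries held 20170500 to 23319948 counts in affected mice and 11434901 (replicate 14) to 22401136 in unaffected mice. *Tg* took 10.7% to 24.3% of the counts in affected and 21.6% to 29.6% in unaffected mice, and all 10 thyroid markers were detected. Of 19661 genes tested, 7.63% were called higher and 6.1% lower in affected mice (edgeR's quasi-likelihood test, adjusted p under 0.05), and for 3.78% the lowest affected mouse exceeded the highest unaffected one. Several markers of other cells moved with single mice or with the groups. The 6 macrophage markers summed to 230 to 368 CPM in affected and 84.6 to 200 in unaffected mice, without overlap. CPM means counts relative to the TMM-scaled library total. The 7 white adipose markers summed to 2189 CPM in affected replicate 1 and 1095 in affected replicate 6, against 400 to 857 in all other mice. The 6 skeletal muscle markers summed to 20490 CPM in affected replicate 6, 17.4 to 845 in other affected and 8.74 to 9590 in unaffected mice. Affected replicate 3 had the highest sums of cartilage (356 CPM) and airway markers (71.8), against at most 7.25 and 9.85 in other mice. Parathyroid markers summed to 29.4 CPM in affected replicate 4 and 1800 to 4310 in the others. T cell markers summed to 212 CPM in unaffected replicates 14 and 21, against at most 31.4 in the other mice. B cell markers summed to 55.5 CPM in affected replicate 1, against at most 1.86 in the other mice. The part of these tissues in the bZIP levels was not tested. In unaffected replicate 23 the mucin gene *Muc5b* stood at 35100 CPM, against at most 7.13 in the other unaffected and 174 in the affected mice. In whole-tissue RNA, fewer cells of a type and less RNA per cell cannot be told apart.

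Of the 9 bZIP genes, 5 were called higher in affected mice (*Atf3*, *Atf4*, *Atf5*, *Ddit3* and *Cebpg*) and none was called lower. None was lower with DESeq2 or at an unadjusted p under 0.05 either. DESeq2 called 7 higher, with *Cebpb* and *Creb3l1* added. *Cebpb* had an unadjusted p of 0.0147 in edgeR's quasi-likelihood test. The 5 genes called in the main fit did not overlap between the groups. Because the genes were chosen on this contrast, nothing is read from these counts against the 7.63% called higher and the 3.78% without overlap among all genes. Their median log2 fold change was 0.84, where that of all genes tested was 0.01. The plot of the 9 genes by mouse shows these values.

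**Figure D1:**
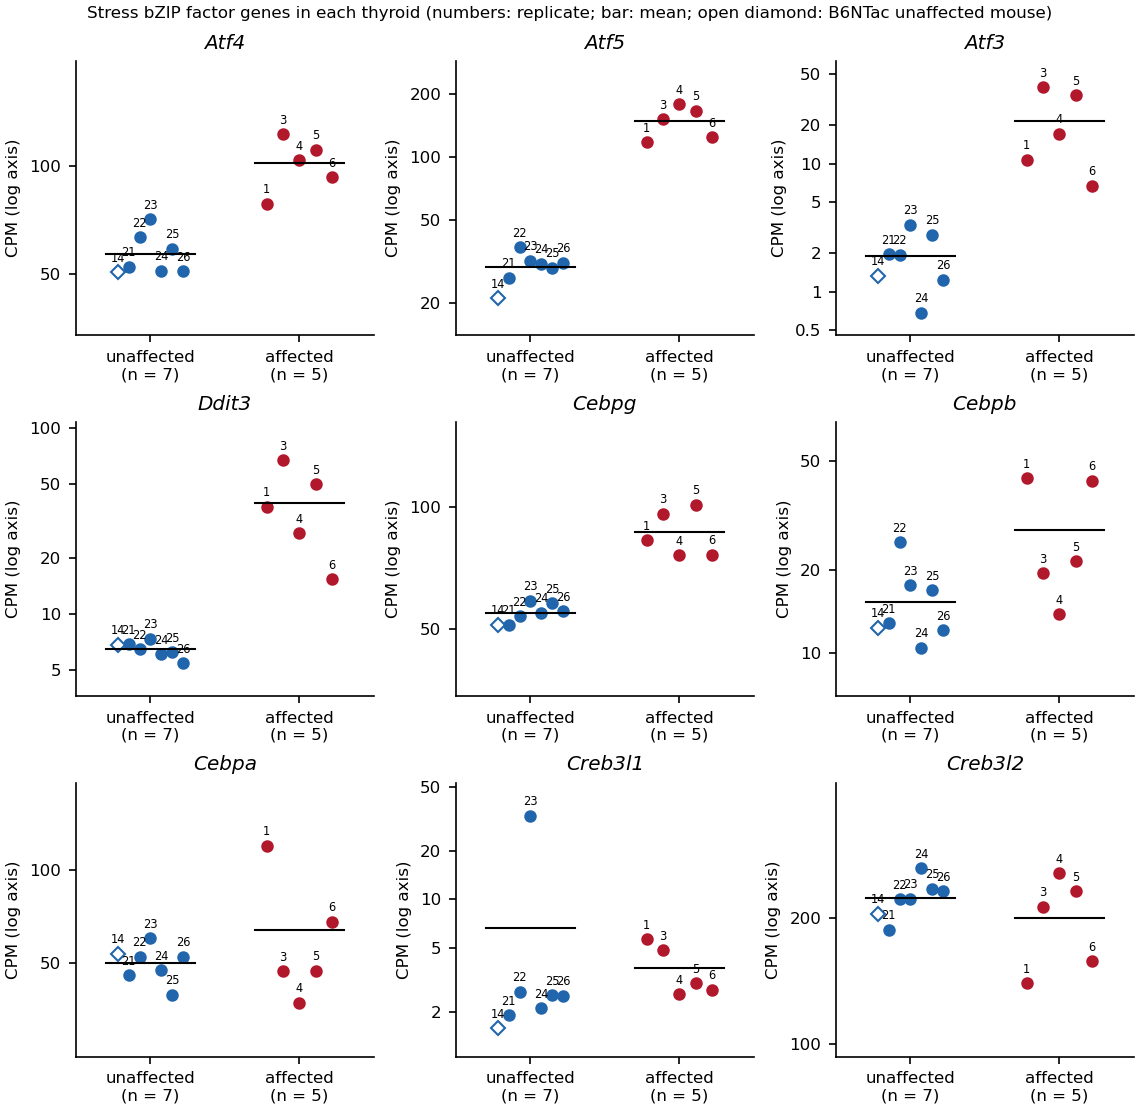
Levels of the 9 stress bZIP genes in each thyroid, as CPM on a log axis, with unaffected mice in blue, affected mice in red, replicate numbers beside the points and a bar at the group mean. The 5 affected mice lie above all 7 unaffected mice for *Atf4*, *Atf5*, *Atf3*, *Ddit3* and *Cebpg*, the groups overlap for the other genes, and unaffected replicate 23 stands at 33.0 CPM for *Creb3l1*.

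*Atf4* (chr15:80255184-80257541, plus strand) encodes the central factor of the response to phosphorylated eIF2 alpha. It stood at 78.6, 123, 104, 111.5 and 93.4 CPM in affected replicates 1, 3, 4, 5 and 6. The unaffected mice had 50.7 to 71.2 CPM, with a median of 52.5. No values overlapped, although the lowest affected mouse (replicate 1) and the highest unaffected mouse (replicate 23) were close. The log2 fold change was 0.84 (standard error 0.12), from 57.0 ± 7.93 CPM (SD, n = 7) to 102 ± 17.0 (SD, n = 5).

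*Atf5* (chr7:44812256-44816658, minus strand) encodes a factor known from the mitochondrial stress response. Affected replicates 1, 3, 4, 5 and 6 had 117, 151, 178, 165.5 and 123.5 CPM. Unaffected mice lay between 21.1 and 37.0 CPM, with a median of 30.8. The separation was wide, since even the lowest affected mouse stood far above the highest unaffected one. Its log2 fold change was 2.31 (standard error 0.14), and the affected mice spread by 1.52-fold from lowest to highest.

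*Atf3* (chr1:191170296-191218039, minus strand) encodes a factor induced by many stresses, usually described as a repressor. It had 10.7, 39.3, 17.1, 34.1 and 6.72 CPM in affected replicates 1, 3, 4, 5 and 6. In unaffected mice it stood at 0.687 to 3.34 CPM, median 1.94, which rested on only 13 to 68 counts. The groups did not overlap, and the affected mice differed among themselves by 5.85-fold. The log2 fold change of 3.50 (standard error 0.48) was the largest of the 9 genes.

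*Ddit3* (chr10:127290774-127296288, plus strand) encodes CHOP, a factor linked to cell death under lasting ER stress. Affected replicates 1, 3, 4, 5 and 6 had 37.7, 67.0, 27.2, 49.9 and 15.4 CPM. The unaffected mice were tightly grouped at 5.45 to 7.37 CPM, with a median of 6.46. This is a log2 fold change of 2.61 (standard error 0.28). As with *Atf3*, the values were highest in affected replicates 3 and 5 and lowest in affected replicate 6. The range was 4.36-fold in affected and 1.35-fold in unaffected mice.

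*Cebpg* (chr7:35046422-35056573, minus strand) encodes C/EBP gamma, a short family member that dimerises with ATF4. It had 82.7, 96.2, 75.9, 101 and 76.1 CPM in affected replicates 1, 3, 4, 5 and 6. The unaffected mice had 51.1 to 58.6 CPM, median 54.8. The difference was the smallest of the 5 called genes (log2 fold change 0.66, standard error 0.08), but the spread was small in both groups, and the lowest affected mouse lay clear of the highest unaffected one.

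*Cebpa* and *Cebpb* followed another pattern across mice. *Cebpb* (chr2:167688915-167690418, plus strand), whose product acts in inflammation and early fat cell differentiation, had 43.4, 19.5, 13.8, 21.5 and 42.4 CPM in affected replicates 1, 3, 4, 5 and 6, and 10.4 to 25.3 CPM (median 12.8) in unaffected mice. *Cebpa* (chr7:35119293-35121928, plus strand), whose product maintains mature fat cells and hepatocytes, had 120, 46.8, 37.0, 47.0 and 68.0 CPM in the affected replicates and 39.3 to 59.97 (median 52.2) in the unaffected mice. For both genes, affected replicates 1 and 6 were the highest of all 12 mice and affected replicate 4 was the lowest affected mouse. The groups overlapped for both genes. *Cebpb* had a log2 fold change of 0.87 ± 0.31 (SE, adjusted p = 0.0808) and *Cebpa* one of 0.35 ± 0.25 (SE, adjusted p = 0.381), both from edgeR's quasi-likelihood test. The macrophage markers, which did not overlap between the groups, had their highest sum in affected replicate 1 (368 CPM) and their lowest among affected mice in replicate 6 (230 CPM), and their part in these levels was not tested.

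The mice with the highest *Cebpa* and *Cebpb* were those with the highest sum of white adipose markers. *Adipoq*, which encodes the fat cell hormone adiponectin, stood at 174 CPM in affected replicate 1 and 81.2 in affected replicate 6, against 35.4 to 82.2 in the other mice. The 4 brown adipose markers summed to 947, 81.5, 27.7, 369 and 299 CPM in affected replicates 1, 3, 4, 5 and 6. Unaffected mice had 48.8 to 179 CPM of them. With the mean of the white adipose list as a covariate, an alternative chosen after seeing the data, the log2 fold change became 0.04 for *Cebpa* (adjusted p = 0.868) and 0.57 for *Cebpb* (adjusted p = 0.133). Other covariates chosen in the same way moved both genes too. The thyroid list without *Tg* lowered them to 0.09 and 0.56, and the immediate-early list raised them to 0.84 and 1.38. The part of each tissue in these levels was not tested. Without affected replicate 1, that of *Cebpa* was -0.0073 and that of *Cebpb* 0.66. *Cebpb* passed the threshold in 3 of 26 other settings, which were DESeq2 (0.88, adjusted p = 0.028), the fit without affected replicate 4 (1.07, adjusted p = 0.0304) and the fit without unaffected replicate 22 (1.06, adjusted p = 0.0401). *Cebpb* has 20.7% of its exon bases in common with *Tmem189* on the opposite strand, and the sources do not say if reads were assigned by strand. The plot beside the adipose markers shows the mice one by one.

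**Figure D2:**
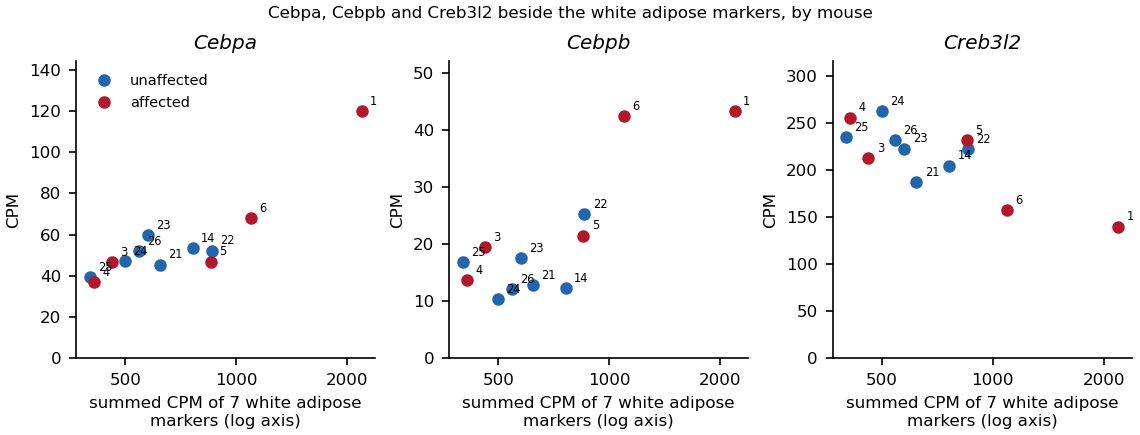
CPM of *Cebpa*, *Cebpb* and *Creb3l2* (linear axis from 0) against the summed CPM of 7 white adipose markers (log axis) in each mouse, with replicate numbers. Affected replicates 1 and 6, with marker sums of 2189 and 1095 CPM, have the highest *Cebpa* and *Cebpb* and the lowest *Creb3l2* of all mice.

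*Creb3l2* (chr6:37327255-37442146, minus strand), which encodes an ER membrane factor of secretory cells, had 140, 213, 255.5, 232 and 158 CPM in affected replicates 1, 3, 4, 5 and 6. The unaffected mice had 187 to 263 CPM, with a median of 222.5. The 3 other affected mice lay within the unaffected range, and only affected replicates 1 and 6 lay below it. These are also the mice with the lowest share of *Tg*, 11% and 10.7% of counts. On the log2 scale the difference was -0.17 ± 0.14 (SE, adjusted p = 0.482 in edgeR's quasi-likelihood test), and over the other settings it ran from -0.37 to -0.06 without passing the threshold.

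*Creb3l1* (chr2:91982328-92024502, minus strand) encodes the related factor known from bone and other matrix-secreting tissue. It was low in affected replicates 1, 3, 4, 5 and 6, at 5.68, 4.85, 2.58, 3.02 and 2.75 CPM. Among unaffected mice, 6 had 1.58 to 2.68 CPM and replicate 23 had 33.0, or 14.8-fold the mean of the other unaffected mice. The direction of the difference depended on this mouse. With all mice it was -0.81 ± 0.83 on the log2 scale (SE, adjusted p = 0.564) and 0.77 without unaffected replicate 23 (adjusted p = 0.0514), both from edgeR's quasi-likelihood test. DESeq2 replaced the count of that mouse as an outlier and gave 0.71 (adjusted p = 0.0264).

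In unaffected replicate 23, 13 genes, *Creb3l1* among them, stood as far above the other unaffected mice as *Creb3l1* or farther. The others include the gel-forming mucins *Muc5b* and *Muc19* (3250 CPM, at most 1.00 in other unaffected and 1.32 in affected mice), the receptor *Pigr* for secreted antibodies (91.9 CPM, at most 1.17 and 53.0) and *Agr2*, a disulphide isomerase of mucus-secreting cells (47.8 CPM, at most 2.85 and 51.8). *Nupr1*, one of the ATF4 targets, was also among them (235 CPM, at most 16.0 and 147). *Agr2* thus reached a higher level in an affected mouse than in unaffected replicate 23. These genes were named after their values were seen. For the other bZIP genes, unaffected replicate 23 was 0.994-fold to 2.02-fold the mean of the remaining unaffected mice. Without it, the same 5 genes stayed past the threshold. Whether the tissue in this library differed was not tested.

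**Figure D3:**
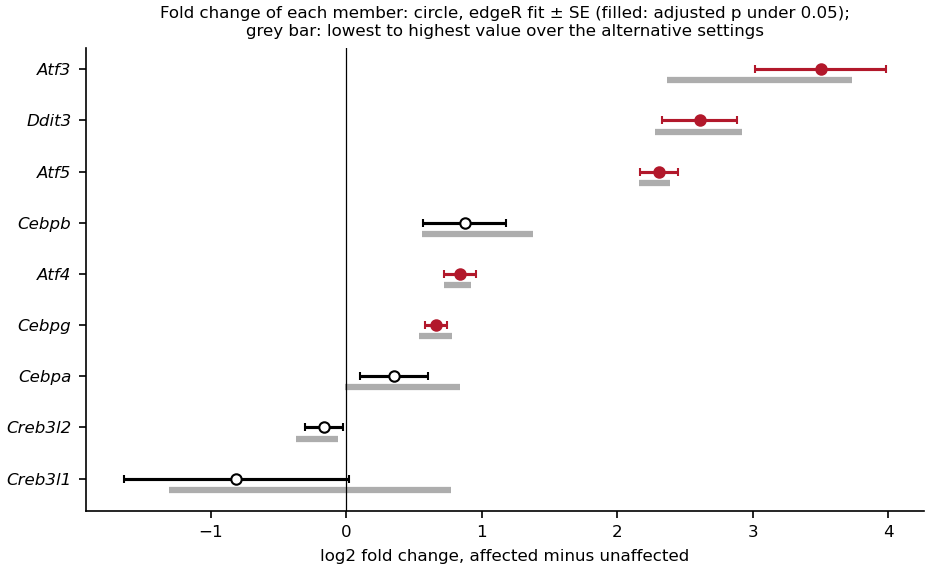
Log2 fold change of each gene between affected and unaffected mice from the edgeR fit, with its standard error, filled where the adjusted p is under 0.05. Grey bars give the lowest and highest value over 26 other settings and cross 0 only for *Cebpa* (-0.0073 to 0.84) and *Creb3l1* (-1.31 to 0.77).

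The plot of fold changes shows how far the values moved with the processing. *Atf3*, *Atf4*, *Atf5*, *Ddit3* and *Cebpg* stayed past the threshold in all 26 other settings. Their log2 fold changes ran from 2.37 to 3.73 for *Atf3*, from 0.72 to 0.92 for *Atf4*, from 2.16 to 2.39 for *Atf5*, from 2.28 to 2.92 for *Ddit3* and from 0.54 to 0.78 for *Cebpg*. The lowest value of *Atf3* came from FPKM on the log2(FPKM + 1) scale, which understates changes of low genes. With the immediate-early list as a covariate, an alternative also chosen after seeing the data, *Atf3* had 3.36 (adjusted p = 0.0317 in edgeR's quasi-likelihood test).

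The unaffected B6NTac mouse (replicate 14) lay within the range of the B6NCrl mice for all but 3 genes. It had 50.7 CPM of *Atf4*, 21.1 of *Atf5* and 1.58 of *Creb3l1*, the lowest of all mice for these 3 genes. The B6NCrl mice had 51.0 to 71.2, 26.5 to 37.0 and 1.905 to 33.0 CPM of them. It had 1.33 CPM of *Atf3* where the B6NCrl mice had 0.687 to 3.34, and 6.83 of *Ddit3* where they had 5.45 to 7.37. For the 5 called genes it lay below all affected mice. It is a single mouse, so no test was made, and its library was the smallest. Its T cell markers summed to 212 CPM, as in replicate 21, against at most 2.49 in the other B6NCrl mice. Erythrocyte markers summed to 883 CPM in it, 121 to 272 in the B6NCrl mice and 156 to 867 in affected mice. The part of these cells in its bZIP levels was not tested.

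FPKM values, which are per length, allowed levels to be compared between the genes. In unaffected mice the order by median FPKM was *Creb3l2* (31.8), *Atf4* (31.3), *Cebpa* (19.5), *Atf5* (16.6), *Cebpg* (15.2), *Cebpb* (8.97), *Ddit3* (6.84), *Creb3l1* (0.955) and *Atf3* (0.945). Only *Atf4* and *Cebpa* were neighbours whose ranges did not overlap. In affected mice the order was *Atf5* (86.8), *Atf4* (56.2), *Ddit3* (45.7), *Creb3l2* (31.7), *Cebpg* (24.1), *Cebpa* (18.7), *Cebpb* (14.2), *Atf3* (8.23) and *Creb3l1* (1.15), and only the last pair did not overlap. *Atf5* moved from the fourth place to the first and *Ddit3* from the seventh to the third, while *Atf3* remained among the lowest in both groups.

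**Figure D4:**
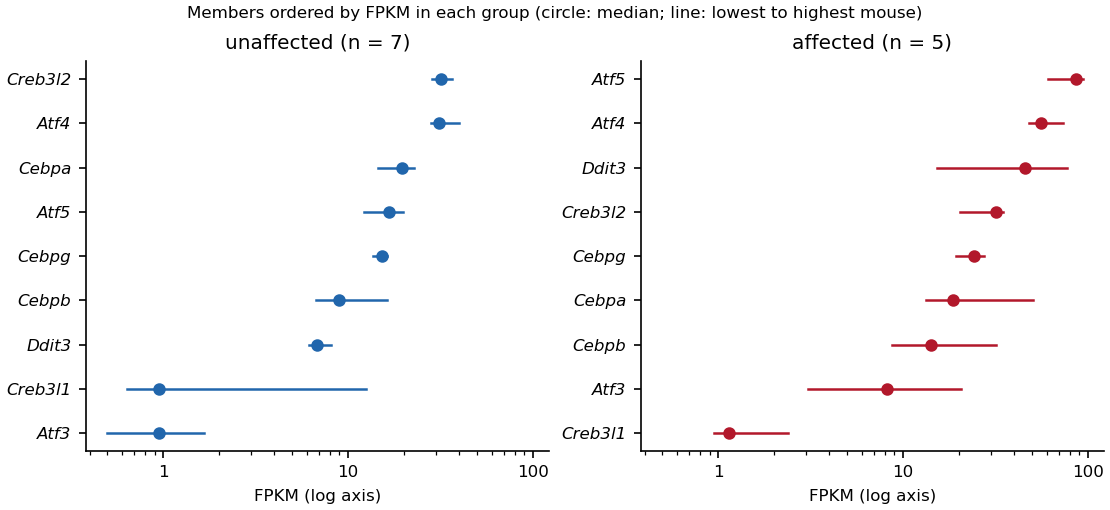
FPKM (log axis) of the 9 genes in unaffected and affected mice, ordered by median, with lines from the lowest to the highest mouse. *Creb3l2* (31.8) and *Atf4* (31.3) lead in unaffected mice, and *Atf5* (86.8) and *Atf4* (56.2) in affected mice.

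The balance between genes within a mouse also differed. The FPKM of *Atf5* was 0.404 to 0.595 times that of *Atf4* in unaffected mice and 1.19 to 1.67 times in affected mice, so *Atf5* exceeded *Atf4* in all 5 affected mice and in no unaffected mouse. The ratio of *Ddit3* to *Atf4* was 0.925, 1.05, 0.506, 0.866 and 0.316 in affected replicates 1, 3, 4, 5 and 6, against 0.195 to 0.259 in unaffected mice. These ratios use the same levels as the choice of the genes and are given without a test.

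The affected mice varied more among themselves than the unaffected ones for 8 of the 9 genes (SD of log2 CPM), and for 67.8% of all genes tested. The SD was 1.08 against 0.72 for *Atf3* and 0.82 against 0.14 for *Ddit3*. *Creb3l1* was the exception, with 0.50 against 1.48, where replicate 23 set the larger value. After the mean of each group was removed, log2 CPM of *Atf3* over the 12 mice had a Pearson correlation of 0.80 with *Atf4*, 0.74 with *Ddit3* and 0.71 with *Cebpg*. *Cebpa* had 0.71 with *Cebpb* and -0.82 with *Creb3l2*. These correlations are descriptive, since the values of a mouse share its library, its scaling and its tissue composition.

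Among 15167 genes with a mean of at least 1 log2 CPM, those closest in pattern to the bZIP genes were found in the same way, over 12 mice with group means removed. *Atf4* was closest to *Srxn1* (0.964) and *Gclm* (0.958), both genes of thiol redox metabolism, and to *Csnk1e* (0.932), a casein kinase. These are the highest values picked from all those genes, so high values arise by selection, and no test was made. *Ddit3* was closest to *Irf2bp1* (0.98), *Rbm15b* (0.954) and *Stk19* (0.948). Within affected mice these were 0.998, 0.98 and 0.975, and within unaffected mice 0.575, 0.443 and 0.75. *Atf3* was closest to *Prdm4* (0.929), *Ier5l* (0.928) and *Vipr2* (0.926). *Cebpb* was closest to *Ndufb5* (0.973), *Ywhag* (0.971) and *Fitm2* (0.968). *Creb3l1* was closest to *Golm1* (0.952), *Klf2* (0.944) and *Msmo1* (0.94), where unaffected replicate 23 weighs heavily.

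The transcripts behind the counts were examined through the length implied by count and FPKM, which the choice of genes did not use. Of 12928 multi-transcript genes that reached 10 counts in all mice, 0.271% differed between the groups (limma, adjusted p under 0.05). None of the 7 bZIP genes tested was among them. *Creb3l1* and *Cebpb* have a single annotated transcript and were not tested. The implied length of *Atf4* was 1751 ± 9.09 bases (SD, n = 5) in affected and 1762 ± 7.31 (SD, n = 7) in unaffected mice, a difference of -0.59% with an interval of 2 standard errors from -1.34% to 0.165% (adjusted p = 0.63 from limma, exact two-sided permutation p = 0.0593). For *Ddit3* it was 907 ± 3.79 and 907 ± 12.2 bases, with an interval of -1.34% to 1.31%. For *Atf5* the difference was 0.184% (interval -0.386% to 0.758%, adjusted p = 0.896 from limma, exact two-sided permutation p = 0.0366). For *Atf3* the interval was wide, from -6.72% to 20.4%, and unaffected replicate 24, with 13 counts, gave 1344 bases where the other unaffected mice gave 1949 to 1984.

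Upstream genes were those of eIF2 alpha, its kinases and phosphatase subunits, the sensor IRE1 alpha and the Golgi proteases that cut ER membrane factors. Of 11 genes tested, 3 were called higher and 1 lower, beside 7.63% and 6.1% of all genes. *Ppp1r15a*, which encodes the stress-induced subunit that removes the phosphate from eIF2 alpha, was at 26.5 to 44.3 CPM in affected and 14.0 to 24.3 in unaffected mice (log2 fold change 0.82, standard error 0.16). *Ern1*, encoding the sensor IRE1 alpha, had 0.42 and *Eif2s1*, encoding eIF2 alpha itself, had 0.26. *Eif2ak4*, encoding the amino acid sensor kinase GCN2, was lower (-0.22). *Eif2ak3*, encoding PERK, had 0.29 and was not called (adjusted p = 0.207, edgeR's quasi-likelihood test). The most abundant gene of the list, the phosphatase catalytic subunit *Ppp1cb*, had 0.12 (adjusted p = 0.502, edgeR's quasi-likelihood test). The count of 3 is not stable, since 1 gene was called higher when affected replicate 3, affected replicate 5 or unaffected replicate 14 was left out.

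Of 24 known targets of ATF4 and CHOP that were tested, 11 were called higher and none lower, beside 7.63% and 6.1% of all genes, with a median log2 fold change of 0.78. *Gdf15*, encoding a stress-induced hormone, had 14.7 to 78.7 CPM in affected and 1.53 to 7.56 in unaffected mice (log2 fold change 3.86, standard error 0.49). *Trib3*, encoding a pseudokinase, had 11.2 to 36.4 against 2.98 to 4.88 CPM (2.57, standard error 0.27). *Slc7a5*, an amino acid transporter gene, had 16.9 to 31.3 against 3.06 to 11 CPM (2.33, standard error 0.30), and *Mthfd2*, of mitochondrial folate metabolism, had 12.7 to 24.9 against 3.19 to 4.84 CPM (2.30, standard error 0.19). For 9 of the genes the lowest affected mouse exceeded the highest unaffected one, as for 3.78% of all genes. The most abundant gene, the lipoprotein receptor *Vldlr*, had a log2 fold change of -0.06 (adjusted p = 0.949, edgeR's quasi-likelihood test). The list was written with results of these data known and is no independent evidence.

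For known targets of the CREB3 family, 3 of 8 genes were called higher and none lower (all genes, 7.63% and 6.1%), with a median log2 fold change of 0.31. They were *Sec24d* (0.58) and *Sec31a* (0.32), which encode coat proteins of vesicles leaving the ER, and *Arf4* (0.52), a small GTPase of the Golgi. All 3 overlapped between the groups, and *Sec31a* was the most abundant gene of the list. With library totals without *Tg* none of the 8 was called higher. Of 6 acute-phase targets of C/EBP factors tested, none was called higher in edgeR's quasi-likelihood test, DESeq2 or the limma fits on FPKM, and 1 had an unadjusted p under 0.05 in the first (*Lcn2*, 0.0232). The most abundant of them, complement *C3*, had 172 to 694 CPM in affected and 197 to 329 in unaffected mice (log2 fold change 0.54, adjusted p = 0.225).

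Among the other bZIP genes of the genome, 39 of 44 were tested, of which 9 were called higher and 4 lower (all genes, 7.63% and 6.1%), with a median log2 fold change of 0.25. *Fosb*, of the AP-1 family, had 8.21 to 186 CPM in affected and 0.74 to 10.4 in unaffected mice (log2 fold change 3.88, standard error 0.90). *Nfil3*, a clock-related repressor, had 1.27 and the AP-1 gene *Jun* had 0.93. *Hlf*, of the circadian PAR family, was lower (-0.94, standard error 0.20). For the other branches of the unfolded protein response, *Atf6* had 94.8 to 143 CPM in affected and 60.2 to 76.2 in unaffected mice (log2 fold change 0.71, standard error 0.10). *Xbp1* had 101 to 139 against 86.0 to 124 CPM (0.27, adjusted p = 0.152, edgeR's quasi-likelihood test). The most abundant, *Nfe2l1*, had 0.38 (adjusted p = 0.168 in the same test). With DESeq2, 14 of these genes were higher.

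Immediate-early genes outside the bZIP class, which respond within minutes to handling and many stimuli, were examined because *Atf3* is often counted with them. Of 10 genes, 5 were called higher and none lower, where all genes had 7.63% and 6.1%, with a median log2 fold change of 0.94. *Nr4a1* had 1.51, *Egr1* 1.47, *Egr2* 1.34 and *Ier3* 1.21, and the most abundant, *Klf6*, had 0.92. Their summed level was 427, 618, 1182, 575 and 585 CPM in affected replicates 1, 3, 4, 5 and 6, and 306 to 429 in unaffected mice. The highest sum was in affected replicate 4, and *Atf3* and *Ddit3* were highest in affected replicates 3 and 5. A link between them was not tested. The count of 5 fell to 2 or 3 when any of affected replicates 3, 4 and 6 or of unaffected replicates 14, 21, 22, 24, 25 and 26 was left out.

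**Figure D5:**
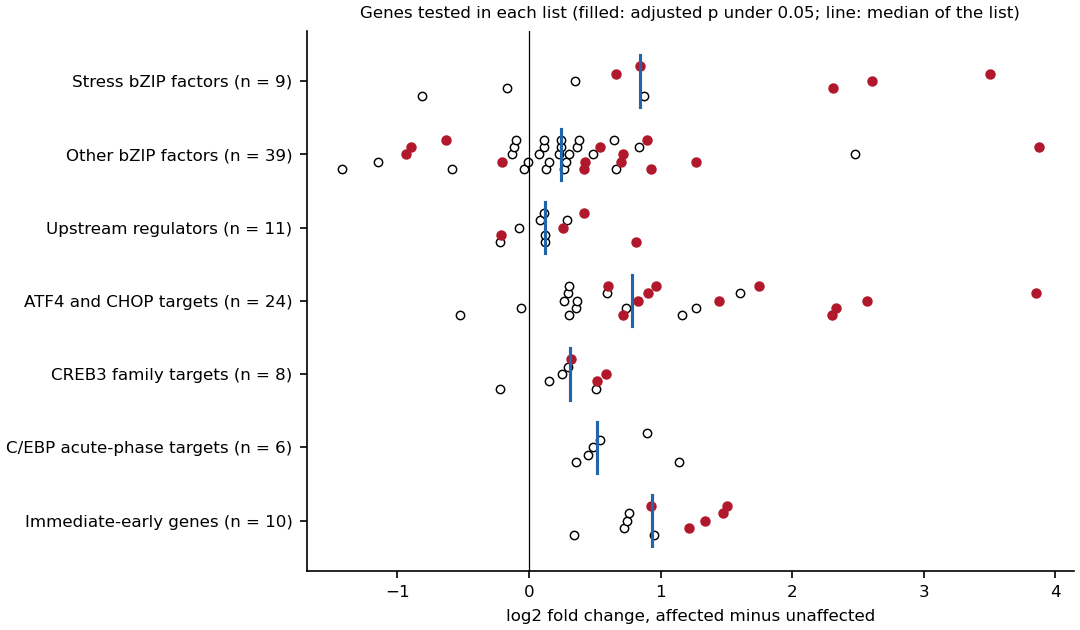
Log2 fold change of each tested gene in the bZIP set and in 6 related lists, with filled red points where the adjusted p is under 0.05 and a blue line at the median of each list. The medians are 0.84 for the stress bZIP factors, 0.78 for the ATF4 and CHOP targets, 0.94 for the immediate-early genes and 0.12 for the upstream regulators.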

How the data were processed

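RNA of mouse thyroids was sequenced by the authors as ribosomal RNA-depleted total RNA (1 library per mouse) and aligned and quantified with OmicSoft software on GRCm38 and Ensembl genes. The authors deposited a table of unnormalized estimated counts and a table of FPKM. Strand use in counting is not stated, and exons of *Atf5*, *Ddit3*, *Cebpa*, *Cebpb* and *Cebpg* overlap other annotated genes, by 1.37% of exon bases for *Cebpg* to 20.7% for *Cebpb* (*Ddit3* 10.9%). The paper names no test for expression, but lists *Ddit3* with a fold change and p-value among genes of the unfolded protein response. Samples were grouped by the phenotype in the labels.

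Counts were rounded, filtered with filterByExpr (minimum count 10, 19661 genes left), scaled by TMM and tested with edgeR 4.0.16 (robust quasi-likelihood test, affected against unaffected, R 4.3.3), with Benjamini-Hochberg adjustment over all genes and a threshold of 0.05. CPM uses TMM-scaled totals (prior count 2 on the log2 scale). Standard errors were taken as log2 fold change over the root of F. Implied length is count over FPKM and library total, and was tested with limma 3.58.1 and with exact permutation over 792 splits, for which the smallest possible p is 0.00126. P-values set the difference between the groups against the spread between these mice, and do not separate substrain from dysplasia.

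The genes and lists were chosen with earlier results of these data known. Text names the 9 genes, at most 4 called genes per list with the largest change and the most abundant, the 3 genes closest in pattern for 5 members, *Tg*, *Xbp1* and *Atf6*. *Adipoq*, *Lcn2*, *Tmem189*, *Eif2ak3* and genes named for a promoter element or for unaffected replicate 23 were chosen after their values were seen. Alternatives were DESeq2 1.42.0, other scalings and filters, limma on FPKM (pseudocount 1 or 0.1, minimum mean FPKM 0.5 or none), B6NCrl controls only, *Xist* as a covariate and leaving out each mouse. Covariates of the white adipose, immediate-early and thyroid lists were added after seeing the data, and were not applied to the counts of the other lists. The fits were tested on simulated data. Promoters are from RefSeq, and positions from GENCODE release M21.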

Additional observations from a re-analysis of the deposited data

Results flagged for a closer look

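Values of single mice were compared with the rest of their group in 48 groups by Dixon's test, of which chance alone sets about 1 in 20 apart. A single mouse stood apart in 6 groups. *Creb3l1* was at 33.0 CPM in unaffected replicate 23, where the other unaffected mice had 1.58 to 2.68. The summed immediate-early genes reached 1182 CPM in affected replicate 4, where the other affected mice had 427 to 618. The summed brown adipose markers reached 179 CPM in unaffected replicate 22, where the other unaffected mice had 48.8 to 97.0. Affected mice had 27.7 to 947 CPM of them, with the highest sum in replicate 1.

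The implied transcript length of *Atf3* was 1344 bases in unaffected replicate 24, which held 13 counts of the gene, and 1949 to 1984 in the other unaffected mice. In affected mice it was 1982 bases in replicate 3 and 1984 in the others. The implied length of *Creb3l2* was 6923 bases in affected replicate 1 and 6989 to 6997 in the other affected mice.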

How the results depend on the processing

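*Atf3*, *Atf4*, *Atf5*, *Ddit3* and *Cebpg* kept their direction and their call in all 26 other settings (2 of which, B6NCrl controls only and without replicate 14, are the same fit), and the number of bZIP genes called higher stayed between 5 and 7. The log2 fold change of *Creb3l1* was 0.71 with DESeq2 and 0.11 with limma on log2(FPKM + 0.1), and ran from -1.01 to 0.77 when single mice were left out, with unaffected replicate 23 turning its sign. That of *Cebpa* ran from -0.0073 to 0.52, with affected replicate 1 turning it. Differences in implied length that changed sign stayed within 2%, and none passed the threshold: leaving out single mice gave -0.012% to 0.288% for *Cebpa*, -1.97% to 1.64% for *Cebpg*, -0.0149% to 0.39% for *Creb3l2* and -0.32% to 0.318% for *Ddit3*, and B6NCrl controls only gave 0.517% for *Cebpg* and 0.125% for *Ddit3*. DESeq2 called 14 other bZIP genes higher. Upstream regulators called higher fell to 1 with library totals without *Tg*, log2(FPKM + 1) without a filter, no filter on low counts, B6NCrl controls only and upper-quartile factors, and ran from 1 to 3 when single mice were left out. CREB3 targets called higher were 0 without *Tg* and 1 with log2(FPKM + 1) and no filter. Acute-phase targets ran from 0 to 1. Immediate-early genes called higher were 2 without *Tg* in the totals and in the 3 FPKM fits, 3 with unscaled totals, no filter, B6NCrl controls only, upper-quartile factors or *Xist* as a covariate, and ran from 2 to 5 when single mice were left out. The causes were not tested.

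Of all genes, 1500 were called higher and 1199 lower, or 55.6% higher. With library totals without *Tg* these were 608 and 1711 (26.2% higher, median log2 fold change -0.13), and with upper-quartile factors 1149 and 1510 (43.2%). The numbers were 979 and 890 with log2(FPKM + 1), 983 and 905 with log2(FPKM + 0.1), 719 and 620 with log2(FPKM + 1) and no filter, 1140 and 801 without a filter on counts, and 611 and 479 with the immediate-early list as a covariate. Low counts limit *Atf3* (13 to 68) and *Creb3l1* (19 to 58 outside replicate 23) in unaffected mice. No paired analysis was possible because the groups share no replicate numbers.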
